A study of Mus musculus with 8 samples.

Results

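Cathepsins, lysosome-associated membrane proteins (LAMPs) and the subunits of the vacuolar proton pump (V-ATPase) were followed in pressure-overloaded mouse hearts. They are the 41 genes, of 30445 in the deposited table, whose symbol is Cts followed by a letter, Lamp followed by a digit, or begins with Atp6v or Atp6ap. The libraries compared are 4 labelled Mertk knockdown and 4 labelled wildtype, all made from hearts of C57 mice 8 weeks after transverse aortic constriction (TAC), which bands the aortic arch so that the heart must pump against a higher pressure. Every heart in both groups was operated. The labels give no age, do not say by which means or in which cells Mertk was lowered, and do not say whether a replicate was 1 mouse, so p-values speak of the spread among these libraries, which may be technical in part. Mertk encodes a receptor with which macrophages take up dying cells, and the study's title links it to heart failure and the type I interferon response.

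Material taken up by a macrophage, and worn-out parts of any cell, end in lysosomes. The V-ATPase couples hydrolysis of ATP by its cytosolic V1 part to transport of protons through its membrane-embedded V0 part, and the acid it makes activates the cathepsins, proteases that cut the delivered protein. LAMPs line the lysosomal membrane, and loss of LAMP2 in people causes Danon disease, a cardiomyopathy with autophagic vacuoles. The transcription factors TFEB and TFE3 bind an E-box-like motif in the promoters of many of these genes.

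No member was called different between the groups. Calls rest on edgeR's quasi-likelihood test, fitted to the 17787 genes that passed its filter on low counts, with a Benjamini-Hochberg adjusted p under 0.05 as the threshold. It called 0.647% of those genes, 0.275% as higher and 0.371% as lower in the labelled knockdown libraries. Of the 41 members 35 passed the filter, and 0 were higher and 0 lower. At an unadjusted p under 0.05, which 6.11% of tested genes reached as higher and 6.32% as lower (12.4% in all), 3 members were found: the cathepsin gene Ctss and the membrane protein gene Lamp2, both lower in the labelled knockdown libraries, and the proton pump gene Atp6v1d, which was higher. DESeq2, which called 2.87% of the genes it tested, called 1 member, Ctss.

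The study's labels were checked first on the targeted gene. Mertk was measured at 12.8, 12.3, 10.6 and 11.8 CPM (counts scaled to a common library size by TMM) in the libraries labelled Mertk knockdown, against 11.02, 10.4, 10.5 and 12.3 CPM in the wildtype libraries. The groups overlapped, with a log2 fold change of 0.10 (SE 0.11, 95% interval −0.14 to 0.34, adjusted p = 0.766, edgeR). Reads summed over the gene therefore do not tell the groups apart, and all directions below are those of the labels. Total counts were 63378755 to 68762911 in the labelled knockdown libraries and 59287621 to 71571173 in wildtype. Summed markers of hepatocytes reached 228 to 299 CPM in the labelled knockdown libraries and 297 CPM in wildtype replicate 1, but only 40.7 to 50.3 CPM in wildtype replicates 2 to 4. Heart muscle markers, 10 genes that define cardiomyocytes, summed to 55286 to 62856 CPM in the labelled knockdown libraries and 39895 to 52772 CPM in wildtype, without overlap. Myh6, Atp2a2 and Actc1 were the 3 without overlap, the other 7 overlapped, Tnnt2 was at a log2 fold change of −0.13, and 0 of the 10 were called by edgeR (3 higher at an unadjusted p under 0.05). The part of cell markers in the members' values was tested only for hepatocyte, macrophage and summed atrial markers, in the fits given for Ctss and among the alternatives.

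Promoters of the members were searched for a motif known from lysosomal genes and one known from interferon-responsive genes. Sequences from 250 bases before to 50 bases after the transcription start were taken from RefSeq (GRCm38.p6, the assembly of mm10) and were found for 29 of the 41 members, in 34 promoters. The E-box CACGTG, which is its own reverse complement and forms the centre of the TFEB motif, was present in 9 of the 34 member promoters, against 7.15% of all 32851 promoters in the table. Its longer form TCACGTGA, which contains it and is also its own reverse complement, was present in 5, against 0.974% of all promoters. The other motif searched, on both strands, was a repeat of GAAA with any 2 bases between the copies, the core of the element bound by interferon regulatory factors. It was found in 5 member promoters (Ctss, Ctso, Lamp1, Lamp3 and Atp6v1d), against 3.44% of all promoters.

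Promoters of 4 members are shown whole, since these genes are described most fully below: Ctss, Lamp1, Lamp2 and Atp6v1d. Capitals mark CACGTG and the GAAA repeat, the repeat on either strand.
Ctss, chr3:95526536-95526835, plus strand: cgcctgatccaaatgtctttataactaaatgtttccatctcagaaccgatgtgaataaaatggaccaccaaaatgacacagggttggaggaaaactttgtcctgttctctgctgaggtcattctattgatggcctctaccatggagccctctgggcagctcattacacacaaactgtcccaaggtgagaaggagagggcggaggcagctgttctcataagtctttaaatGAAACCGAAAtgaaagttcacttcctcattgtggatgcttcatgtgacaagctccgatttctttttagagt
Lamp1, chr8:13158911-13159210, plus strand: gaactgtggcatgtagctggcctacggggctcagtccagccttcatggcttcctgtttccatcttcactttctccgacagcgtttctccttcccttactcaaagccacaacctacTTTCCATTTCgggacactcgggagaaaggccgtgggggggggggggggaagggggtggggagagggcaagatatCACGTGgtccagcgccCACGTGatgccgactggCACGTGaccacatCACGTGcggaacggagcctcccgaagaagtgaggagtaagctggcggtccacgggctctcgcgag
Lamp2, chrX:38456411-38456710, minus strand: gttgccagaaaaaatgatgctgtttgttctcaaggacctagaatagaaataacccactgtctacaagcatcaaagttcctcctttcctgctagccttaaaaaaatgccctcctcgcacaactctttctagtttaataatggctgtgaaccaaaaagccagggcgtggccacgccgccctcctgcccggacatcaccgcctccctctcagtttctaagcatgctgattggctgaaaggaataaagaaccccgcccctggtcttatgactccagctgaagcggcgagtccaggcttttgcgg
Atp6v1d, chr12:78861589-78861888, minus strand: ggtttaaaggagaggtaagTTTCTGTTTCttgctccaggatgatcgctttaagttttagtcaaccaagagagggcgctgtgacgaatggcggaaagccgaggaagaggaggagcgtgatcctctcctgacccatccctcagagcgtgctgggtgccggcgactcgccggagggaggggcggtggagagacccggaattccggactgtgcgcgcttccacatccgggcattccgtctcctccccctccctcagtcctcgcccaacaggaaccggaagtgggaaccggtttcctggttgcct
In Ctss the GAAA repeat ends 12 bases before the transcription start. Lamp1 holds 4 copies of CACGTG between 61 and 10 bases before its start, the most of the 29 matched members. The Lamp2 window holds neither motif, which says only that these letters are absent from it.

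For the other members with an E-box, the 12 bases on either side are shown so that the flanks can be compared. Capitals mark CACGTG.
Ctsd, chr7:142387908-142387937, minus strand: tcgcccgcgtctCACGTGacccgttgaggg
Ctsa, chr2:164833766-164833795, plus strand: gatgcagatgctCACGTGaccagagctaca
Ctsf, chr19:4855074-4855103, plus strand: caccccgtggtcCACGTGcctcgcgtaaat
Ctsl, chr13:64370739-64370768, minus strand: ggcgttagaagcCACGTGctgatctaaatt
Atp6v0d1, chr8:105566050-105566079, minus strand: ccctactgcggtCACGTGagacgcggtgcg
Atp6v1a, chr16:44139373-44139402, minus strand: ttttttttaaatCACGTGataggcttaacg
Atp6v0e, chr17:26676387-26676416, plus strand: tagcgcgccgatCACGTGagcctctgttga
Atp6v0b, chr4:117887330-117887359, minus strand: gggtcggcgcatCACGTGcgccggtcaggt
Ctsa, Atp6v0b and Ctsd each held a second copy that is not shown. A match to letters does not show that a factor binds.

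In level, the members ranged widely, down to genes with almost no counts. Compared per length with the deposited FPKM (fragments per kilobase of gene, corrected for library depth), Ctsd stood first, at 358 ± 41.7 in the labelled knockdown libraries and 414 ± 81.9 FPKM in wildtype (SD, n = 4 each). Ctsd encodes cathepsin D, an aspartic protease of all lysosomes. Lamp1, a main protein of the lysosomal membrane, came next, at 138 ± 6.72 FPKM in the labelled knockdown libraries and 122 ± 22.2 FPKM in wildtype. Ctsb, a cysteine protease, followed with 52.99 ± 3.32 FPKM in the labelled knockdown libraries and 53.3 ± 13.2 FPKM in wildtype. The groups overlapped for these 3 genes, and their order held in each of the 8 libraries. Atp6v1g1 of the pump's peripheral stalk and the accessory subunit Atp6ap1 ranked 4 and 5, at 36.5 ± 2.84 and 33.5 ± 0.692 FPKM in the labelled knockdown libraries and at 34.5 ± 3.43 and 32.8 ± 6.31 FPKM in wildtype. These neighbours did not differ beyond their spread.

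The gene length behind the deposited FPKM bears on some ranks. For the 32 members with at least 1000 counts, the length implied by count and FPKM was 1.092 to 1.108 times the merged exon length in GENCODE M21. Exons of minor isoforms are part of that length. Lamp2 has 9552 merged exon bases but a longest transcript of 3604 bases. It ranked 16 of 41 by FPKM and 7 of 41 by CPM per kilobase of the longest transcript, a measure added after the data were seen. Ctsd, Lamp1 and Ctsb kept the first 3 ranks by both.

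**Figure D1:**
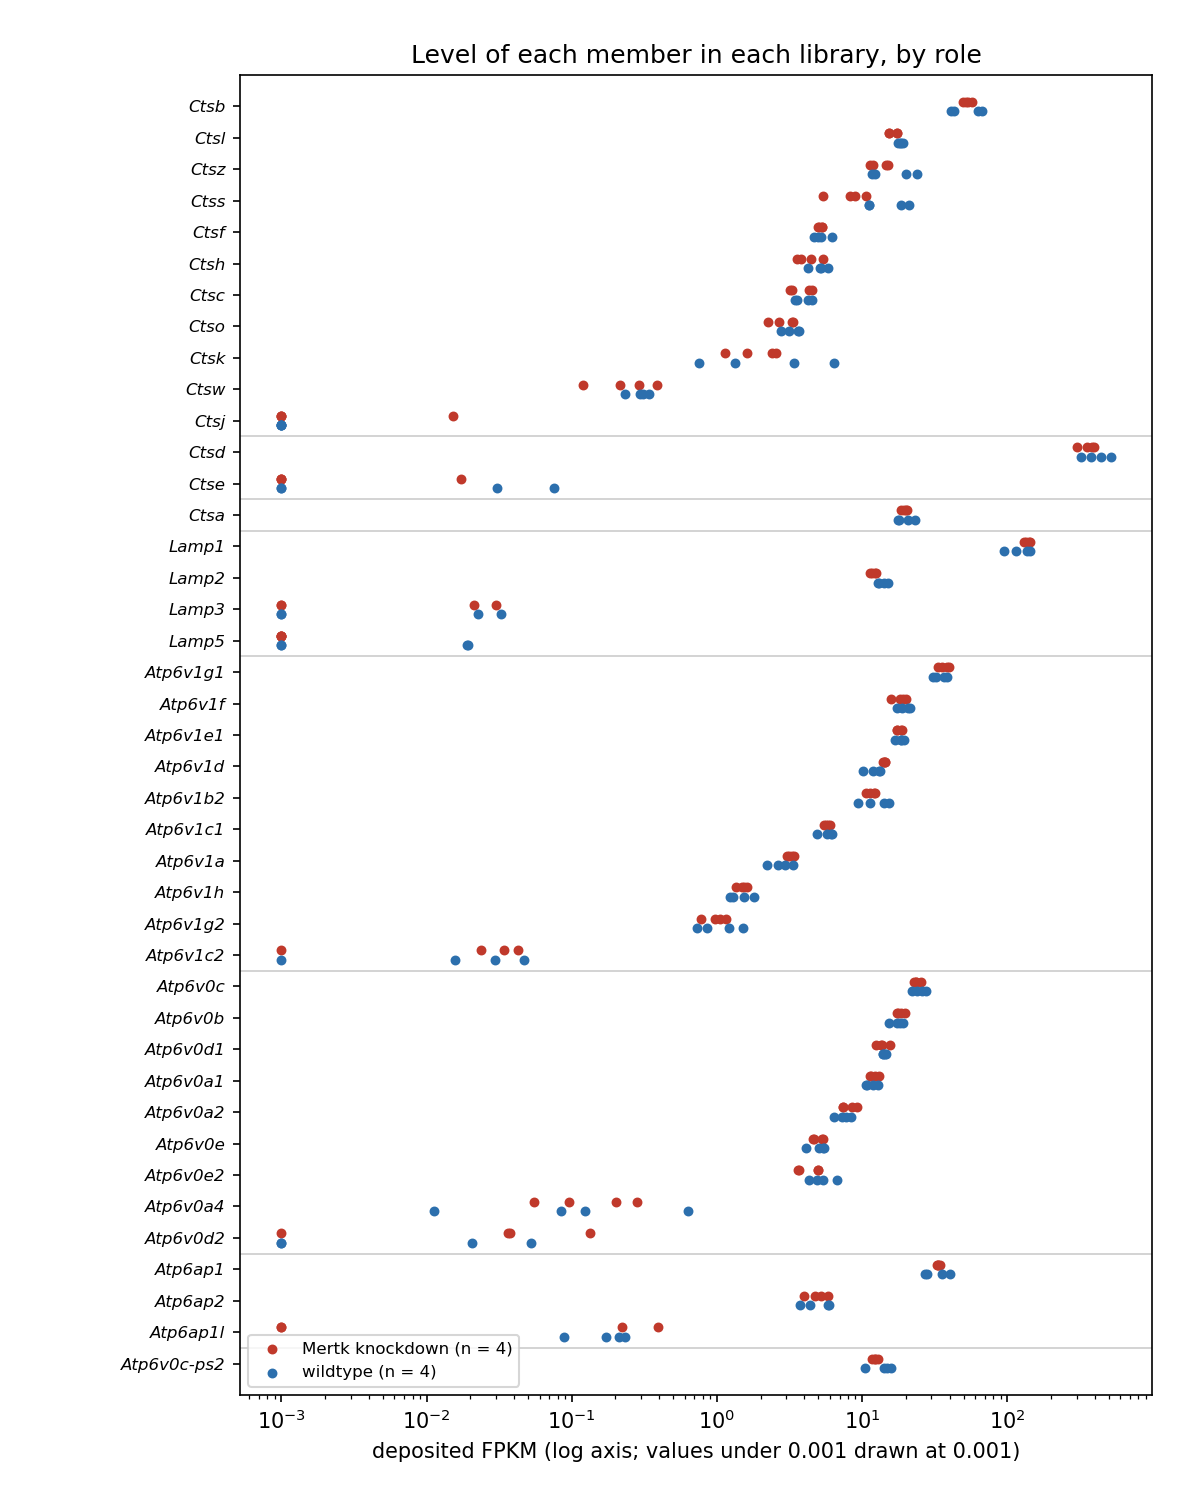
Deposited FPKM of all 41 members in each library (log axis), grouped by role from cysteine cathepsins at the top to the accessory subunits and the pseudogene at the bottom; each point is a library. Ctsd and Lamp1 lie farthest right, and 6 members at the left lie at or near 0 in most libraries of both groups.

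A few genes made up most of the cathepsin message. The 14 cathepsin genes summed to 487 ± 35.1 FPKM in the labelled knockdown libraries and 559 ± 109.7 FPKM in wildtype. Ctsd alone gave 73.4 ± 3.56% of the labelled knockdown sums and 74.05 ± 1.36% of the wildtype sums. Ctsb gave 10.9 ± 1.22% in the labelled knockdown libraries and 9.48 ± 0.715% in wildtype. The myeloid cathepsins Ctss, Ctsz, Ctsh and Ctsc together gave 6.15 ± 1.47% in the labelled knockdown libraries and 7.36 ± 0.9005% in wildtype. The ranges of the groups overlapped for the sum and for all 3 shares.

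Myeloid members, the genes known chiefly from macrophages, dendritic cells, granulocytes and osteoclasts, had log2 fold changes (labelled knockdown minus wildtype) below 0 in all 4 that passed the filter. Their median was −0.32, beside −0.00071 over all genes tested, and 0 were called by edgeR, with Ctss at an unadjusted p under 0.05. The median was −0.0852 in the 5 libraries with hepatocyte transcripts and −0.0860 with a hepatocyte covariate. It was −0.13 in the 4 libraries of low summed atrial markers and −0.13 with a macrophage covariate. In all of these fits Ctsz and Ctsc were above 0. Ctss encodes cathepsin S, which trims the invariant chain of MHC class II in antigen-presenting cells and stays active at neutral pH (chromosome 3, 95526786 to 95556403, plus strand, mm10). Its level was 12.6, 8.03, 13.1 and 15.6 CPM in the labelled knockdown libraries (replicates 1 to 4), against 16.9, 27.1, 17.9 and 30.4 CPM in wildtype. All 4 labelled knockdown libraries lay below all 4 wildtype libraries, an arrangement found in 3.9% of tested genes in this direction. The mean was 12.3 ± 3.16 CPM in the labelled knockdown libraries and 23.1 ± 6.72 CPM in wildtype (SD, n = 4 each). That is a log2 fold change of −0.91 (SE 0.24, 95% interval −1.45 to −0.36), the lowest of the 35 tested members, with an adjusted p = 0.165 by edgeR and 0.00985 by DESeq2. The labels say only heart, not which part, and in RNA of mixed cells fewer cells of a type and less RNA per cell cannot be told apart.

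The other 3 myeloid members overlapped between the groups. Ctsz, cathepsin Z, an exopeptidase of monocytes and macrophages, was at 19.3, 17.9, 23.3 and 22.5 CPM in the labelled knockdown libraries and 18.7, 37.02, 20.98 and 30.8 CPM in wildtype. Wildtype replicates 2 and 4 were high and replicates 1 and 3 lay among the labelled knockdown values, which left a log2 fold change of −0.37 with SE 0.21 (adjusted p = 0.520, edgeR). It was −0.18 without wildtype replicate 2, −0.51 without wildtype replicate 1 and 0.0074 to 0.20 in the 4 fits by library subset or marker covariate. Ctsh, an aminopeptidase of lung and immune cells, had 19.5, 17.8, 25.9 and 21.6 CPM in the labelled knockdown libraries and 26.1, 20.6, 27.5 and 28.03 CPM in wildtype (log2 fold change −0.27, SE 0.14, adjusted p = 0.478, edgeR). Here wildtype replicate 2 was the low one. Ctsc, which activates the serine proteases of granules, had 21.6, 20.3, 26.8 and 28.1 CPM in the labelled knockdown libraries and 22.4, 26.3, 24.4 and 27.9 CPM in wildtype. Its log2 fold change of −0.06 had a 95% interval of −0.34 to 0.22 (adjusted p = 0.890, edgeR). The remaining 2 myeloid members, Atp6v0d2 and Lamp3, were too low to test.

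**Figure D2:**
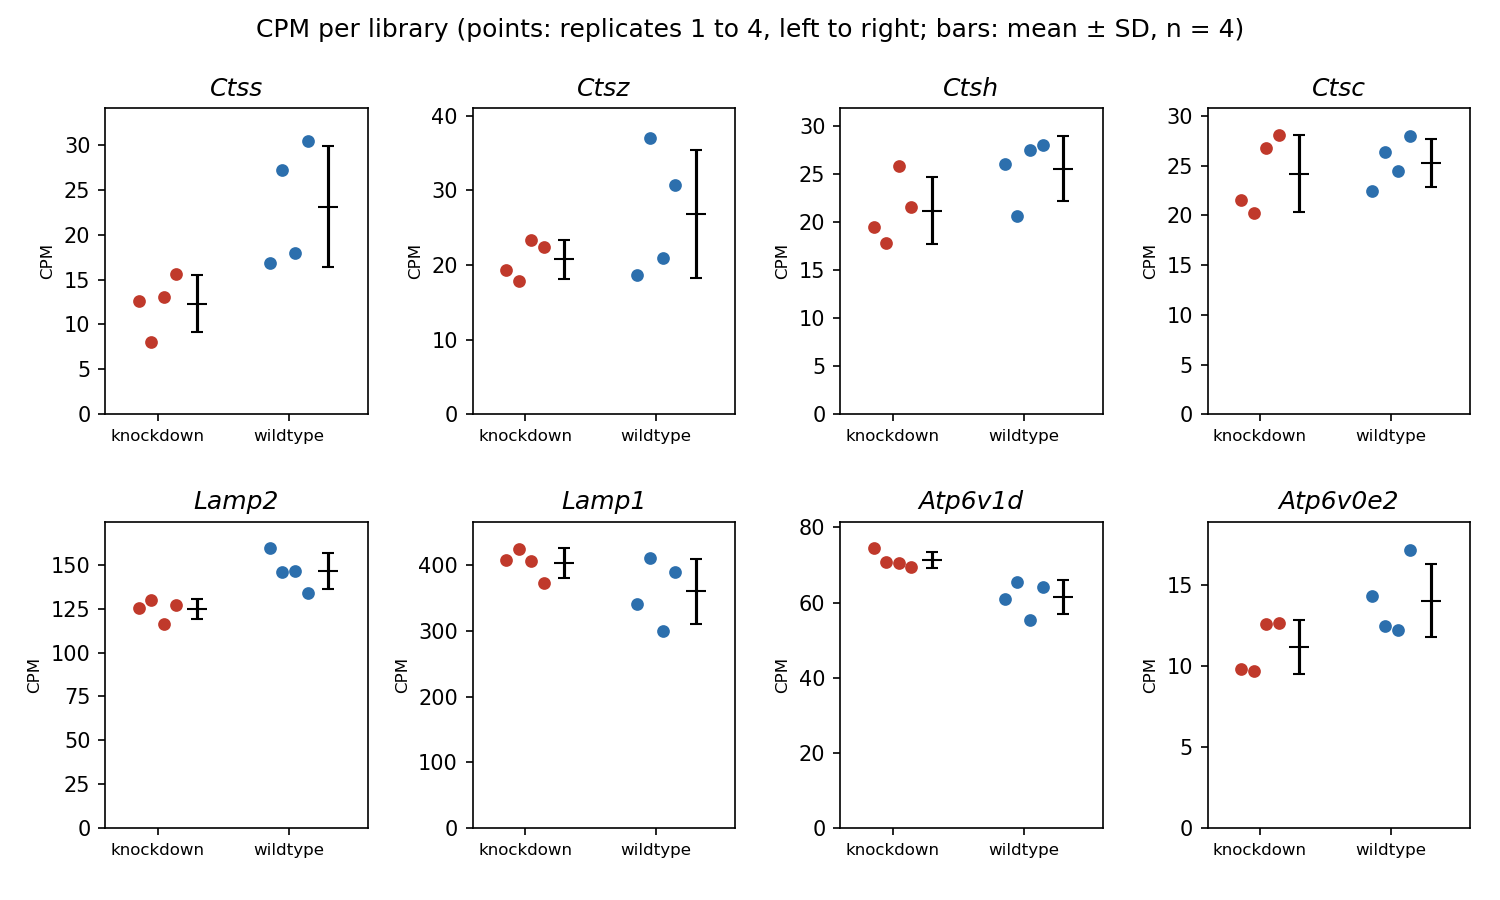
CPM of 8 members in each library, labelled knockdown at the left and wildtype at the right of each panel, with points in replicate order 1 to 4 and bars for mean ± SD (n = 4). The groups do not overlap for Ctss, Lamp2 and Atp6v1d and overlap for the other 5.

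Macrophage and interferon transcripts were measured beside Ctss. The 15 pan-macrophage markers summed to 284, 232, 283 and 282 CPM in the labelled knockdown libraries and 266, 401, 267 and 421 CPM in wildtype, so that only wildtype replicates 2 and 4 stood above the rest. None of them was at 0, 14 of the 15 had a log2 fold change below 0 (median −0.49) and 0 were called by edgeR, with 5 lower at an unadjusted p under 0.05. Cx3cr1 went the other way, at 1.255 (SE 0.766, adjusted p = 0.569, edgeR). It had 0.875, 0.680, 6.22 and 7.41 CPM in the labelled knockdown libraries and 0.899, 2.26, 1.37 and 1.82 CPM in wildtype. Cx3cr1 also enters the macrophage covariate used below. Lyz2 gave the largest part of the sum, on average 106 of 270.5 CPM in the labelled knockdown libraries and 118 of 339 CPM in wildtype. Its log2 fold change was −0.16, so ratios to the sum lean on a marker that differed less than the median one. Per 100 CPM of the 15 markers, Ctss gave 4.45, 3.46, 4.61 and 5.54 CPM in the labelled knockdown libraries and 6.34, 6.77, 6.70 and 7.24 CPM in wildtype, without overlap. The same ratio overlapped for Ctsz (6.79 to 8.22 in labelled knockdown, 7.02 to 9.24 in wildtype), for Ctsh (6.86 to 9.13 in labelled knockdown, 5.15 to 10.3 in wildtype) and for Ctsc (7.59 to 9.96 in labelled knockdown, 6.57 to 9.13 in wildtype). A list of 20 interferon-stimulated genes summed to 192 to 271 CPM in the labelled knockdown libraries and 486 to 1015 CPM in wildtype, with all 20 below 0 and 10 called lower by edgeR. The part of macrophage markers in the Ctss difference was tested only in the fits given next. The part of interferon-stimulated genes was not tested.

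**Figure D3:**
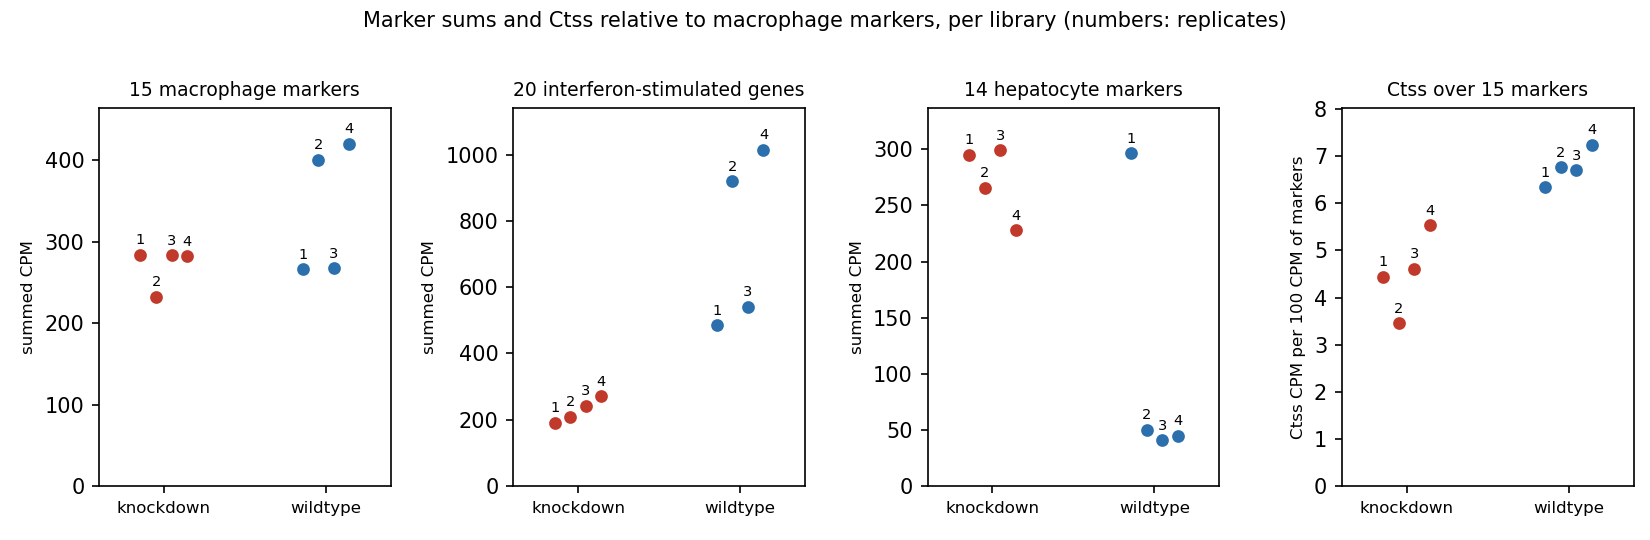
Summed CPM of 15 macrophage markers, 20 interferon-stimulated genes and 14 hepatocyte markers, and Ctss CPM per 100 CPM of the macrophage markers, in each library (numbers are replicates). The last panel and the interferon panel separate the groups, while the hepatocyte panel sets wildtype replicate 1 among the labelled knockdown libraries.

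The log2 fold change of Ctss was also fitted with marker covariates and in subsets of the libraries. With the mean log2 CPM of the macrophage markers as a covariate its log2 fold change was −0.50 (SE 0.12, adjusted p = 0.0731, edgeR). Within the 5 libraries with hepatocyte transcripts, which include wildtype replicate 1 alone, it was −0.44 (SE 0.31, adjusted p = 0.728, edgeR), and with the hepatocyte score as a covariate −0.37 (SE 0.29, adjusted p = 0.724, edgeR). Summed atrial markers were 196 to 486 CPM in 4 libraries (labelled knockdown replicates 1 to 3 and wildtype replicate 1) and at least 854.5 CPM in the others. In wildtype replicate 2, Nppa alone gave 2308 of the 2347 CPM. Sln, Myl4, Myl7 and Stard10 had only 0.151, 2.96, 0.604 and 2.08 CPM there, while Dkk3 had 33.8 CPM, against 4.20 to 6.60 CPM in the 4 low libraries. The sum therefore does not show whether that library held atrial tissue. Within the 4 libraries of low sum the log2 fold change of Ctss was −0.58. Both subsets rest on the same single wildtype library, so their spread comes from the labelled knockdown libraries alone and their p-values say little. Leaving out 1 library at a time gave −1.03 to −0.74.

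Members on neither the myeloid list nor the list restricted to other cells were counted as ubiquitous, the pseudogene apart. No ubiquitous cathepsin was called by edgeR or DESeq2, or reached an unadjusted p under 0.05. All 6 had a log2 fold change below 0 (median −0.12), though Ctsb was above 0 on the FPKM scale, and the 95% interval of each lay within a 1.5-fold difference either way. Ctsd was measured at 1013, 1025, 891 and 762 CPM in the labelled knockdown libraries and 988, 1298, 905 and 1100 CPM in wildtype. The groups overlapped, with a log2 fold change of −0.22 (SE 0.14, 95% interval −0.53 to 0.10, adjusted p = 0.594, edgeR). It was −0.11 without wildtype replicate 2, −0.13 without labelled knockdown replicate 4 and −0.0098 in the libraries of low summed atrial markers. GENCODE M21 places the gene Gm49369, not counted in the table, over 6757 bases of Ctsd on the same strand. Ctsl, a cysteine endopeptidase whose loss in mice causes dilated cardiomyopathy, had 127, 109.5, 107 and 121 CPM in the labelled knockdown libraries and 139, 127, 143 and 122 CPM in wildtype (log2 fold change −0.20, SE 0.10, adjusted p = 0.455, edgeR; −0.30 with the hepatocyte covariate). Wildtype replicate 4 lay within the labelled knockdown range and the other 3 wildtype libraries above it.

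Ctsb and Ctsa were closest to no difference. Ctsb had 354, 329, 371 and 347 CPM in the labelled knockdown libraries and 290.3, 433, 295 and 403 CPM in wildtype. The labelled knockdown values sat between the 2 low and the 2 high wildtype libraries (log2 fold change −0.02, 95% interval −0.34 to 0.30, adjusted p = 0.976, edgeR). Ctsa, the protective protein that stabilises lysosomal galactosidase and sialidase, had 104, 104, 104 and 94.1 CPM in the labelled knockdown libraries and 95.1, 116.6, 99.6 and 104 CPM in wildtype (log2 fold change −0.03, adjusted p = 0.930, edgeR). Ctsf, a heart-expressed cysteine cathepsin, had a log2 fold change of −0.05, and Ctso one of −0.21, and neither passed. The sign of Ctsb depended on the processing in 10 of 18 alternatives.

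Cathepsins restricted to other cells were low and variable. Ctsk, the collagen-cutting protease of osteoclasts and fibroblasts, lies next to Ctss on chromosome 3 (95499256 to 95509362). It had 2.77, 1.89, 3.89 and 4.17 CPM in the labelled knockdown libraries and 2.25, 10.4, 1.35 and 5.46 CPM in wildtype, where replicate 2 was highest and replicate 3 lowest of all 8 libraries. Its log2 fold change of −0.62 had a 95% interval of −1.95 to 0.71 (adjusted p = 0.732, edgeR). Summed fibroblast markers, 10 genes, were also highest in wildtype replicate 2, at 2709 CPM, and ran from 1314 to 1982 CPM in the other 7 libraries. Ctsw, of cytotoxic lymphocytes, averaged 0.547 ± 0.226 CPM in the labelled knockdown libraries and 0.639 ± 0.107 CPM in wildtype (adjusted p = 0.877, edgeR).

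The LAMP genes pointed in opposite directions without a call. Lamp2 (chromosome X, 38401357 to 38456454, minus strand, mm10) serves autophagy and the fusion of autophagosomes with lysosomes, and its level was 125, 129.7, 116 and 127 CPM in the labelled knockdown libraries, against 159.5, 146, 147 and 134 CPM in wildtype. Each labelled knockdown library lay below each wildtype library, by a small margin. The means, 125 ± 5.75 CPM in the labelled knockdown libraries and 146 ± 10.5 CPM in wildtype (SD, n = 4 each), gave a log2 fold change of −0.23 (SE 0.09, 95% interval −0.43 to −0.04, adjusted p = 0.314, edgeR). The count does not resolve the splice forms LAMP2A, LAMP2B and LAMP2C. Lamp1 had 408, 425, 407 and 372 CPM in the labelled knockdown libraries and 340.2, 411, 300.2 and 389 CPM in wildtype, overlapping (log2 fold change 0.16, SE 0.12, 95% interval −0.10 to 0.42, adjusted p = 0.633, edgeR). Lamp1 was at 0.0849 without wildtype replicate 3, 0.24 without wildtype replicate 2 and 0.30 with the hepatocyte covariate, and Lamp2 at −0.36 with that covariate. Neither was called in any of the 18 alternatives.

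No subunit gene of the V-ATPase was called. Of the 19 V1 and V0 subunit genes 17 were tested, 10 had a log2 fold change below 0 and 7 above (median −0.02). At an unadjusted p under 0.05 only Atp6v1d was found. Summed over subunits, V1 gave 110.1 ± 2.75 FPKM in the labelled knockdown libraries and 108 ± 10.9 FPKM in wildtype. V0 gave 85.6 ± 1.896 FPKM in the labelled knockdown libraries and 86.1 ± 6.56 FPKM in wildtype. The 95% interval lay within a 1.5-fold difference for all 8 ubiquitous V1 genes and for 6 of the 7 ubiquitous V0 genes, against 44.7% of all tested genes. The median SE of the log2 fold change was 0.0946 for these 15 subunits and 0.194 over all tested genes.

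Among tested V1 genes, only Atp6v1d did not overlap between the groups, and it was not called. It encodes subunit D of the rotating central stalk (chromosome 12, 78840725 to 78861638, minus strand, mm10). Its level was 74.5, 70.8, 70.6 and 69.4 CPM in the labelled knockdown libraries, against 60.98, 65.6, 55.4 and 64.1 CPM in wildtype. All labelled knockdown libraries were higher, as for 4.18% of tested genes, with a log2 fold change of 0.21 (SE 0.08, 95% interval 0.03 to 0.40, adjusted p = 0.330, edgeR). Atp6v1a, the catalytic subunit A that hydrolyses ATP, had 23.3, 20.2, 21.4 and 20.4 CPM in the labelled knockdown libraries and 17.7, 21.8, 15.9 and 18.9 CPM in wildtype (log2 fold change 0.20, adjusted p = 0.519, edgeR). For the B subunit gene Atp6v1b2, its partner in the catalytic ring, the log2 fold change was −0.12 (adjusted p = 0.778, edgeR).

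The V1 genes of highest level did not separate. Atp6v1g1 was at 45.4, 41.4, 46.4 and 48.1 CPM in the labelled knockdown libraries and 39.2, 44.7, 43.5 and 46.1 CPM in wildtype (log2 fold change 0.06, adjusted p = 0.834, edgeR; 0.017 to 0.22 over the alternatives). Atp6v1f, a subunit of the stalk region, was at 18.9, 22.5, 20.6 and 22.9 CPM in the labelled knockdown libraries and 20.6, 24.3, 23.7 and 23.6 CPM in wildtype (log2 fold change −0.12, adjusted p = 0.683, edgeR). For Atp6v1e1 and Atp6v1c1 of the peripheral stalks and Atp6v1h, the subunit that inhibits detached V1, the log2 fold changes were −0.04, −0.02 and 0.02.

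In V0, the proteolipid gene Atp6v0c, whose product builds the rotating membrane ring, was at 89.6, 94.6, 85.04 and 82.5 CPM in the labelled knockdown libraries and 83.1, 94.6, 96.5 and 99.7 CPM in wildtype (log2 fold change −0.09, SE 0.09, adjusted p = 0.759, edgeR). The processed pseudogene Atp6v0c-ps2 also met the rule, with a log2 fold change of −0.19. It may share reads with its parent and took 6.66 ± 0.518% of their joint counts in the labelled knockdown libraries and 7.05 ± 0.714% in wildtype, so neither row is certain. Atp6v0e2, an isoform of the small subunit e, had 9.80, 9.68, 12.6 and 12.7 CPM in the labelled knockdown libraries and 14.3, 12.5, 12.2 and 17.2 CPM in wildtype. Labelled knockdown replicates 3 and 4 reached into the wildtype range (log2 fold change −0.33, SE 0.15, 95% interval −0.66 to 0.00, adjusted p = 0.404, edgeR; −0.21 without wildtype replicate 4). The paralogue Atp6v0e had a log2 fold change of −0.01, and Atp6v0b, Atp6v0d1, Atp6v0a1 and Atp6v0a2 lay between −0.05 and 0.11.

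Shares of the pump's isoforms overlapped between the groups. Subunit a directs the pump to its membrane, and of its FPKM over Atp6v0a1, Atp6v0a2 and Atp6v0a4, Atp6v0a1 took 59.1 ± 1.54% in the labelled knockdown libraries and 60.2 ± 2.52% in wildtype. With Tcirg1, the subunit a gene of osteoclasts and immune cells that the naming rule misses, Atp6v0a1 took 51.2 ± 1.89% in the labelled knockdown libraries and 50.02 ± 2.098% in wildtype, which turns the direction. Tcirg1 itself took 13.4 ± 2.25% in the labelled knockdown libraries and 16.9 ± 1.80% in wildtype, overlapping. Without Tcirg1, the kidney isoform Atp6v0a4 took 0.256 to 1.46% in the labelled knockdown libraries and 0.0658 to 2.89% in wildtype. Atp6v1g1 made up 96.8 to 98.01% of subunit G in the labelled knockdown libraries and 96.2 to 97.8% in wildtype, the rest being the neuronal Atp6v1g2, whose row overlaps Nfkbil1 on the opposite strand by 2133 bases. Of subunit d, Atp6v0d2 gave 0 to 0.977% in the labelled knockdown libraries and 0 to 0.380% in wildtype, the rest being Atp6v0d1. Atp6v1c2 gave 0 to 0.731% of subunit C in the labelled knockdown libraries and 0 to 0.804% in wildtype, beside Atp6v1c1. The shares of the 2 subunit e genes were nearly even, with Atp6v0e2 at 46.05 ± 4.97% in the labelled knockdown libraries and 51.4 ± 2.997% in wildtype.

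The accessory proteins that help assemble the pump were also measured. Atp6ap1 had 113, 115, 109 and 107 CPM in the labelled knockdown libraries and 94.9, 131, 97.4 and 114 CPM in wildtype (log2 fold change 0.02, 95% interval −0.23 to 0.27, adjusted p = 0.970, edgeR). The labelled knockdown values lay inside the wildtype range. Atp6ap2, also known as the prorenin receptor, had 15.3, 13.7, 11.2 and 16.3 CPM in the labelled knockdown libraries and 12.7, 16.4, 11.6 and 16.4 CPM in wildtype (log2 fold change −0.02, adjusted p = 0.980, edgeR). Atp6ap1l averaged 0.216 ± 0.267 CPM in the labelled knockdown libraries and 0.258 ± 0.0900 CPM in wildtype, and its 95% interval of −2.81 to 2.30 could not show a difference of several fold.

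**Figure D4:**
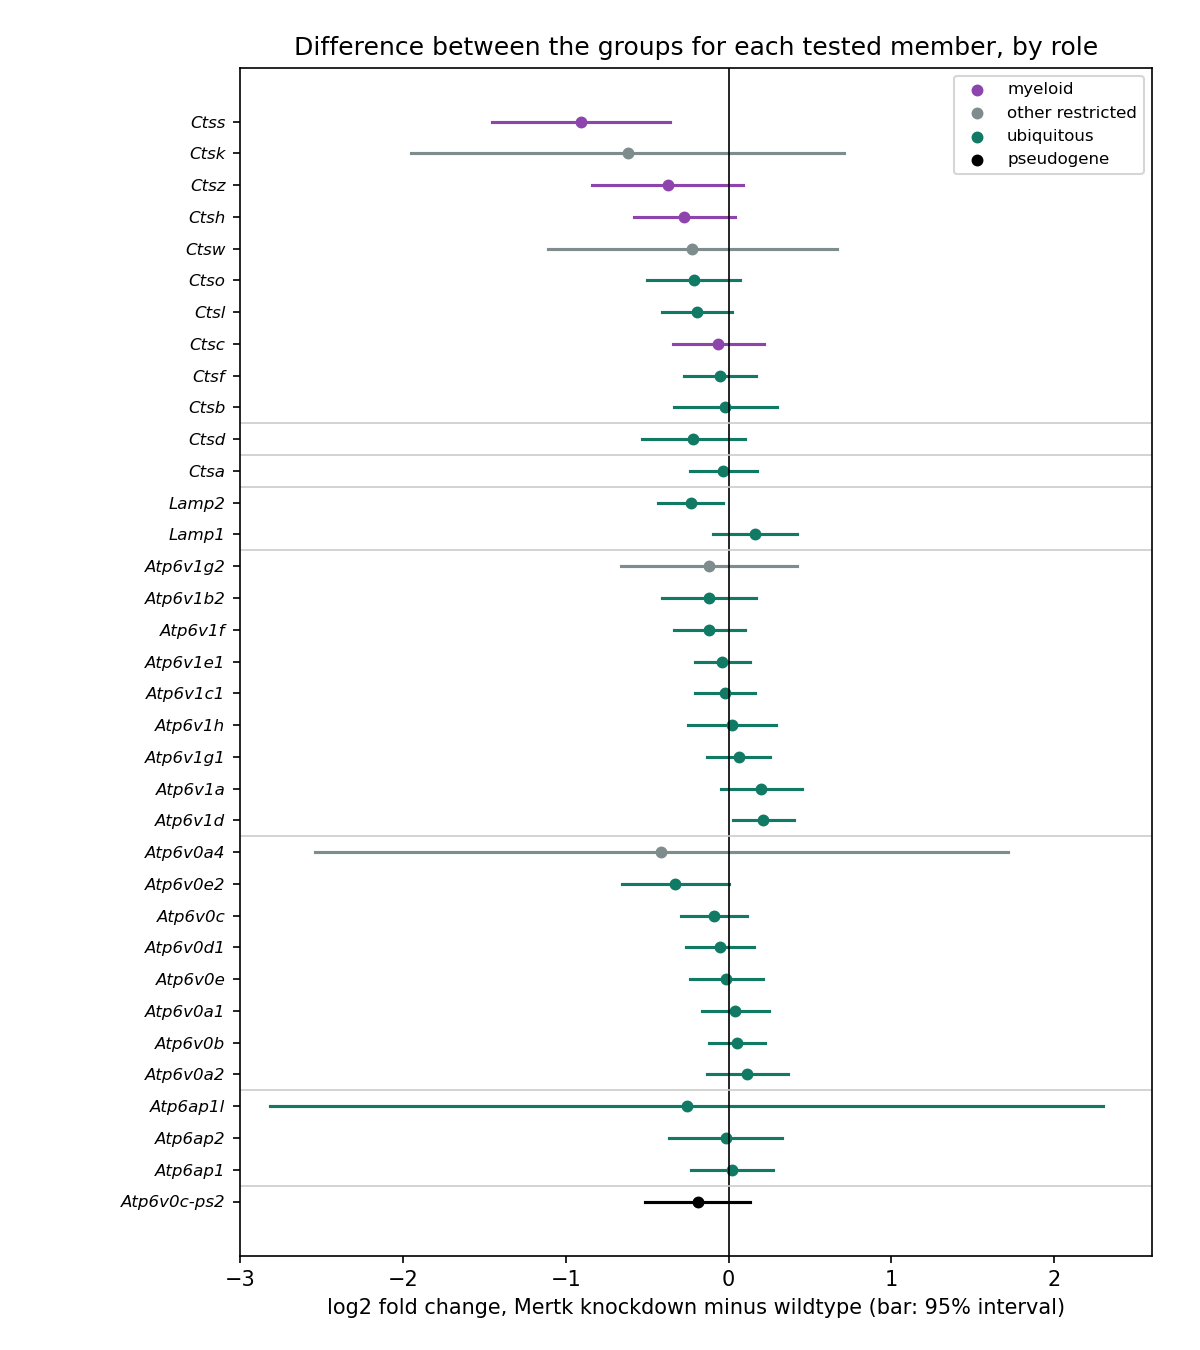
Log2 fold change (labelled knockdown minus wildtype) of the 35 tested members with 95% intervals, by role from cysteine cathepsins at the top to the pseudogene at the bottom and coloured by class. Intervals of Ctss, Lamp2 and Atp6v1d leave out 0 before adjustment, and those of Ctsk, Ctsw, Atp6v0a4 and Atp6ap1l are wide.

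The 6 members that did not pass the filter had 55 counts or fewer over all libraries. Atp6v0d2, the osteoclast and macrophage isoform of subunit d, had 8, 0, 25 and 8 counts in the labelled knockdown libraries and 4, 0, 10 and 0 counts in wildtype. Lamp3, of mature dendritic cells, had 6, 0, 0 and 8 counts in the labelled knockdown libraries and 0, 0, 8 and 6 counts in wildtype. Both were detected in libraries of each group. The stomach and lymphoid protease gene Ctse (29 counts in all), Atp6v1c2 (33), Lamp5 of neurons and plasmacytoid dendritic cells (9) and the placental Ctsj (2) were as sparse. Where a library has 0 counts, up to 3 counts remain possible, worth 0.0419 to 0.0506 CPM by library, a limit that covers counting error only.

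By class, the 26 ubiquitous members had a median log2 fold change of −0.03 (−0.33 to 0.21), with 17 below and 9 above 0. Their median was 0.0590 to 0.0836 in the hepatocyte and atrial fits. This class was set by the lists and not by level, and includes Atp6ap1l, with 124 counts over all libraries. The 4 myeloid members ran from −0.91 to −0.06 (median −0.32) and the 4 tested members restricted to other cells from −0.62 to −0.12 (median −0.32). This last median turned to 0.27 to 0.48 in the 4 fits by library subset or marker covariate, and was 0.0029 without wildtype replicate 2. Over all genes tested 50.1% were below 0. Groups did not overlap for 3 of the 35 tested members, against 8.07% of all tested genes. With 4 myeloid genes in the comparison, no difference between the classes was tested.

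In 4 lists of other lysosomal genes edgeR called 0, against 0.647% of all genes, and DESeq2 called 2, both among the regulators described below. Of 37 lysosomal hydrolases and their cofactors, all tested, 2 were higher and 4 lower at an unadjusted p under 0.05 (median −0.06). Lipa, the acid lipase that frees cholesterol, had 19.6, 21.1, 20.1 and 20.4 CPM in the labelled knockdown libraries and 23.1, 29.5, 23.9 and 27.97 CPM in wildtype, without overlap (log2 fold change −0.36, SE 0.10, adjusted p = 0.168, edgeR). Tpp1, a tripeptidyl peptidase, had 49.2, 52.1, 47.5 and 48.4 CPM in the labelled knockdown libraries and 40.1, 38.7, 48.01 and 38.2 CPM in wildtype, where replicate 3 reached the labelled knockdown range (log2 fold change 0.26, adjusted p = 0.294, edgeR).

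Of 22 membrane proteins outside the rule 21 were tested, with 1 higher and 3 lower at an unadjusted p under 0.05 (median −0.03). Laptm5, a lysosomal protein of blood cells, had 18.7, 21.2, 20.3 and 22.3 CPM in the labelled knockdown libraries and 26.2, 30.3, 22.9 and 29.7 CPM in wildtype, without overlap (log2 fold change −0.40, adjusted p = 0.166, edgeR). Npc2, which hands cholesterol to the lysosomal membrane, had 42.5, 43.2, 50.3 and 45.6 CPM in the labelled knockdown libraries and 50.6, 57.7, 51.2 and 62.2 CPM in wildtype (log2 fold change −0.29, adjusted p = 0.261, edgeR). Tcirg1 had a log2 fold change of −0.33 (adjusted p = 0.364, edgeR).

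Regulators of lysosomal genes followed. Of 20 transcription factors of the TFEB family and lysosomal regulators of mTORC1, 15 had a log2 fold change above 0 (median 0.13), 0 were called by edgeR, and DESeq2 called 2, both higher. At an unadjusted p under 0.05 by edgeR 3 were higher and 1 lower. The 2 called were Fnip2 and Rragd, which act with folliculin in controlling TFEB. Rragd had 112, 119, 83.2 and 113 CPM in the labelled knockdown libraries and 73.5, 69.1, 84.9 and 66.3 CPM in wildtype (log2 fold change 0.54, SE 0.13, adjusted p = 0.112 by edgeR and 0.0103 by DESeq2). Fnip2 had 49.7, 48.6, 22.1 and 31.9 CPM in the labelled knockdown libraries and 24.4, 20.1, 18.2 and 15.9 CPM in wildtype (log2 fold change 0.95, SE 0.25, adjusted p = 0.165 by edgeR and 0.00509 by DESeq2). Labelled knockdown replicate 3 lay within the wildtype range for both. Tfeb and Tfe3 themselves had log2 fold changes of −0.18 (adjusted p = 0.582, edgeR) and 0.07 (adjusted p = 0.892, edgeR). Mitf, of the same family, had one of 0.18 (adjusted p = 0.614, edgeR). Tfec was the 1 gene lower at an unadjusted p under 0.05, with 0.106, 0, 0.0627 and 0 CPM in the labelled knockdown libraries. In wildtype Tfec had 0.284, 0.317, 0.382 and 0.190 CPM, without overlap (log2 fold change −2.75, SE 0.960, adjusted p = 0.273, edgeR). Levels this low leave the size of that change uncertain.

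Cystatins, the inhibitors of cysteine cathepsins, were measured for 3 genes, all with log2 fold changes below 0 and none called by edgeR, with Cst3 alone at an unadjusted p under 0.05. Cst3, cystatin C, had 207, 200.1, 267 and 239 CPM in the labelled knockdown libraries and 249.8, 372, 239 and 330.4 CPM in wildtype, with wildtype replicates 2 and 4 highest (log2 fold change −0.38, SE 0.16, adjusted p = 0.369, edgeR). Those 2 libraries also had the highest macrophage marker sums. Their fibroblast marker sums were highest too, at 2709 and 1982 CPM, though labelled knockdown replicate 3 reached 1981 CPM. The part of either cell type in the Cst3 values was not tested. Cstb, the cytosolic cystatin B, had a log2 fold change of −0.40 (adjusted p = 0.539, edgeR).

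**Figure D5:**
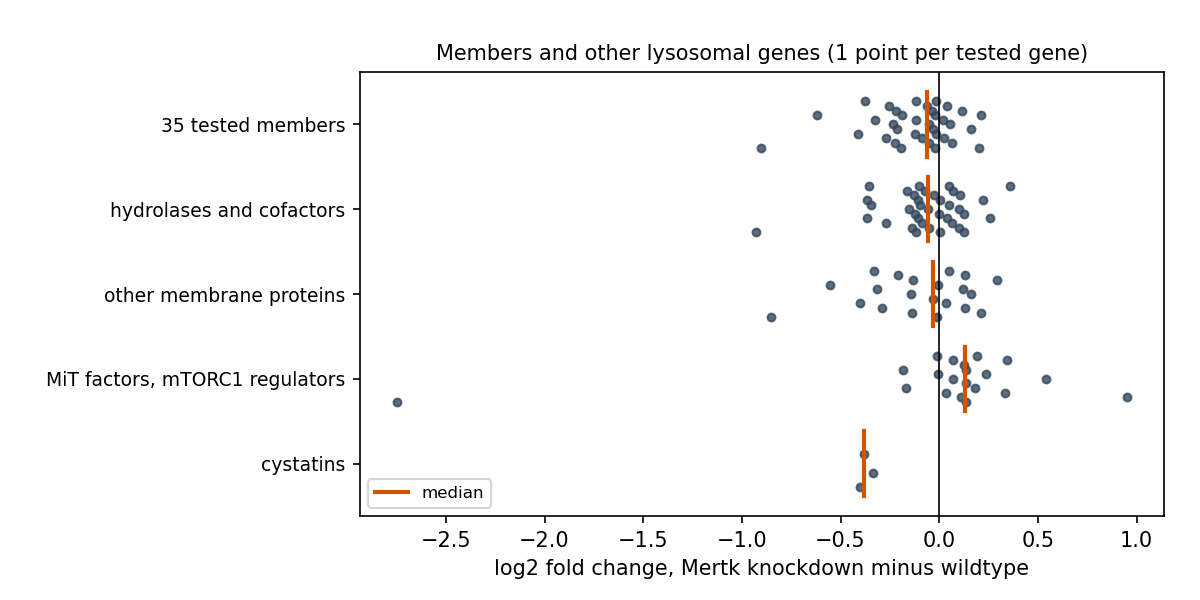
Log2 fold change (labelled knockdown minus wildtype) of the tested members and of 4 other lists of lysosomal genes, 1 point per gene and a line at each median. Most points lie close to 0, and the medians run from −0.38 for the 3 cystatins to 0.13 for the regulators.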

How the data were processed

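The deposited table gives counts and FPKM for each gene and library, per the file headers; FPKM are the authors' values. The submitters' processing notes name build mm10 and, with no role or order, StringTie 2.1.6, HISAT2 2.2.1, cutadapt 1.9, edgeR and DESeq2. Annotation release and strand setting are not given in the sources used here, so overlapping genes may share reads. Per the labels' protocols, poly(A) RNA was read as dUTP-marked paired ends.

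Counts were tested in edgeR 4.0.16 by quasi-likelihood F test (R 4.3.3; TMM, filterByExpr, robust, no covariate, two-sided) on all 8 libraries and adjusted over all tested genes. SE is the log2 fold change divided by the square root of F. The script was tested on simulated counts. Members, lists and alternatives were chosen with earlier results of these data known. Named members are any called, the tested myeloid ones, the 6 of smallest p and the 3 of highest FPKM among cathepsins, LAMPs and V1 or V0 subunits. From each other list the 2 genes of smallest p are named; further genes were chosen after their values were seen. Alternatives covered RLE factors, no filter, DESeq2 1.42.0, limma 3.58.1 on log2(FPKM + 1) and log2(FPKM + 0.1), a replicate block, each library left out, library subsets and marker covariates. A library counted as holding hepatocyte transcripts, or as high in summed atrial markers, when that sum exceeded 3 times the lowest library. Libraries within a group differed by 37.89 to 198.7 chi-square per degree of freedom, more than counting noise, so none is the same library deposited again; whether any share a mouse is not given. All 41 members were found in GENCODE M21, which gave lengths and overlaps.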

Additional observations from a re-analysis of the deposited data

Results flagged for a closer look

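Among 70 sets of 4 libraries (35 tested members in 2 groups), 1 held a library far from the others, where chance would give about 1 in 20. For Ctsa, labelled knockdown replicate 4 had 94.09 CPM, while the other 3 labelled knockdown libraries lay between 103.6 and 104.2 CPM and the wildtype libraries between 95.1 and 116.6 CPM.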

How the results depend on the processing

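No member was called in 17 of 18 alternatives; DESeq2 called 1 lower member (Ctss, adjusted p 0.00985 by DESeq2; 0.0731 to 0.728 in the other alternatives, edgeR or limma) and 2 higher regulators, and the 4 other lists gave 0 calls in the other 17. Within the 5 libraries with hepatocyte transcripts, the median log2 fold change moved to 0.0912 for all members, −0.0852 for myeloid, 0.0590 for ubiquitous and 0.34 for other restricted members. With the hepatocyte covariate these were 0.0833, −0.0860, 0.0687 and 0.48. Within the libraries of low summed atrial markers the median was 0.0860 for all and 0.0836 for ubiquitous members. With the macrophage covariate it was 0.34 for other restricted members. The cause was not tested. Of the named members 6 changed sign. In the hepatocyte libraries Ctsz gave 0.159, Ctsc 0.119, Ctsb 0.282, Ctsa 0.104, Atp6v0c 0.0912 and Atp6v1f 0.0545 on the log2 scale. With the hepatocyte covariate the same genes gave 0.195, 0.129, 0.320, 0.0887, 0.0665 and 0.0338. In the libraries of low summed atrial markers they gave 0.114, 0.0351, 0.282, 0.134, 0.116 and 0.0123. With the macrophage covariate Ctsz gave 0.00739, Ctsc 0.0843, Ctsb 0.206 and Ctsa 0.0211. Ctsb also gave 0.0217 with log2(FPKM + 1), 0.0226 with log2(FPKM + 0.1) and 0.00214 with the replicate block. Leaving out 1 library gave −0.51 to −0.18 for Ctsz, −0.139 to 0.0124 for Ctsc, −0.105 to 0.0948 for Ctsb and −0.0722 to 0.0339 for Ctsa, and −0.63 to 0.0029 for the median of the other restricted members. Depth limits the 6 untested members and Atp6ap1l.

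Replicate numbers gave no clear pairing of the libraries: same-numbered deviations correlated at 0.0615, 6.3e-05, −0.00646 and 0.181. Labelled knockdown replicates 1 and 4 correlated best with their own number, and replicates 2 and 3 with another number. Apart from Ctsb, the replicate block changed no sign among named members and made no call, with Ctss at −0.89 (adjusted p 0.255, edgeR).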

Other observations

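The ratio of Lamp2 to Lamp1, chosen after its values were seen, was 0.0858, 0.0854, 0.0801 and 0.0956 in FPKM in the labelled knockdown libraries, against 0.131, 0.0993, 0.137 and 0.0964 in wildtype, with labelled knockdown replicate 4 and wildtype replicate 4 almost equal. Grn, which encodes progranulin, had 64.03 to 67.02 CPM in the labelled knockdown libraries and 68.7 to 102 CPM in wildtype, without overlap (log2 fold change −0.35, adjusted p = 0.321, edgeR). Smpd1, acid sphingomyelinase, had 164, 186, 139.8 and 145 CPM in the labelled knockdown libraries and 98.7, 141, 108 and 146 CPM in wildtype (log2 fold change 0.36, adjusted p = 0.360, edgeR). Laptm4b had 37.9, 43.7, 37.4 and 37.6 CPM in the labelled knockdown libraries and 35.3, 29.3, 36.6 and 26.5 CPM in wildtype, opposite in sign to Laptm5 (log2 fold change 0.29, adjusted p = 0.337, edgeR). Flcn, folliculin, had a log2 fold change of 0.33 (adjusted p = 0.371, edgeR).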
